A study of Mus musculus with 48 samples.

Results

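Macrophages given the lupus-linked peptide 65-79*LE without interferon-γ (IFN-γ) were compared with macrophages given phosphate-buffered saline (PBS). The comparison was defined by the labels: the 3 letter-labelled LE libraries without IFN-γ and the 3 letter-labelled PBS libraries, 6 of the 48 libraries in the series. All cells were RAW264.7, an immortal mouse macrophage line, harvested after 72 h, so that every library is the same line and differs in what was added. LE cells received 100 µg/ml of a synthetic peptide of 15 residues, copied from residues 65 to 79 of the HLA-DR β chain of an allele tied to systemic lupus erythematosus. PBS cells received buffer, and neither group received IFN-γ. Libraries of the matching peptides from an allele tied to rheumatoid arthritis (SE) and from a protective allele (PE), at the same concentration and time, served for comparison, as did the same treatments with 5 ng/ml IFN-γ. The 3 peptides differ in a short polymorphic stretch within otherwise the same region of the chain.

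HLA-DR molecules are known for presenting peptide fragments to T cells. The region copied here lies on the α-helix of the β chain that borders the groove, and the study asked whether it acts as a signal on macrophages by itself. IFN-γ is the classical macrophage-activating cytokine, switching on guanylate-binding proteins, antigen presentation genes and chemokines. Lipocalins, iron and heme handling genes and antioxidant genes are another part of the macrophage repertoire, used in the defence against microbes and in the recycling of red cells. The question for the 6 libraries was what LE did when IFN-γ was absent.

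The 6 libraries held between 18651187 and 23681400 counted reads. Of the 17 genes listed as marking macrophages, 16 were tested and each of these was expressed in all 6 libraries, including the receptor gene Csf1r, the lysosomal glycoprotein gene Cd68 and the lysozyme gene Lyz2. The phagocytic receptor gene Mertk had at most 4 reads in any of the 6. The T cell genes Cd3e, Cd3d, Cd3g and Cd8a, the B cell genes Ms4a1 and Pax5, the fibroblast genes Col1a2, Col3a1 and Dcn and the epithelial genes Epcam, Krt8 and Krt18 had no reads in any of the 6. The summed CPM of 8 T cell genes was at most 15.9 with PBS and 13.4 with LE, mostly from the kinase gene Lck, and that of 6 B cell genes was 27.7 to 38.1 and 32.0 to 33.9, mostly from Ighm. The sums were 8.13 to 9.91 and 6.55 to 9.30 CPM for 7 dendritic cell genes, and at most 1.00 CPM for 8 fibroblast genes and 0.0805 CPM for 6 epithelial genes. The mean log2(CPM + 1) over 24 IFN-γ target genes ran from 2.52 to 2.55 in the PBS libraries and from 2.58 to 2.65 in the LE libraries, against 6.45 to 6.91 in the 12 letter-labelled libraries with IFN-γ. CPM is the count of a gene scaled to the size of its library. The 3 other libraries labelled LE, which carry an HLA label, had 7.05 to 7.11 on the same measure although their label gives no IFN-γ, and the HLA-labelled PBS libraries had 2.49 to 2.59. These LE libraries went against their label, as did some other HLA-labelled groups, and the HLA-labelled libraries were not used in the comparison.

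Of 12420 genes tested, 3 were called and all were higher with LE: Lcn2, Procr and Avil. A gene was called when its fold change exceeded 1.5 and its Benjamini-Hochberg adjusted p from the edgeR quasi-likelihood test was under 0.05, and the share called was 0.0242% of all genes. The count depended on the treatment of low counts: with no filter on them, 57 genes were called, 22 higher and 35 lower, and DESeq2 without its independent filtering called 9, 6 higher and 3 lower. A block on replicate number also raised the count, as given at the end. The data were precise enough to bound most genes. For 8659 genes (69.7%) the whole 95% interval of the change lay within 1.5-fold in either direction, and for 10807 genes (87.0%) it lay within 2-fold. The median standard error of a log2 fold change was 0.116. A fitted change above 1.5-fold was found for 530 genes, and for 356 of them the interval included 0. Before adjustment, 1039 genes (8.37%) were higher and 914 genes (7.36%) lower at a p under 0.05.

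**Figure D1:**
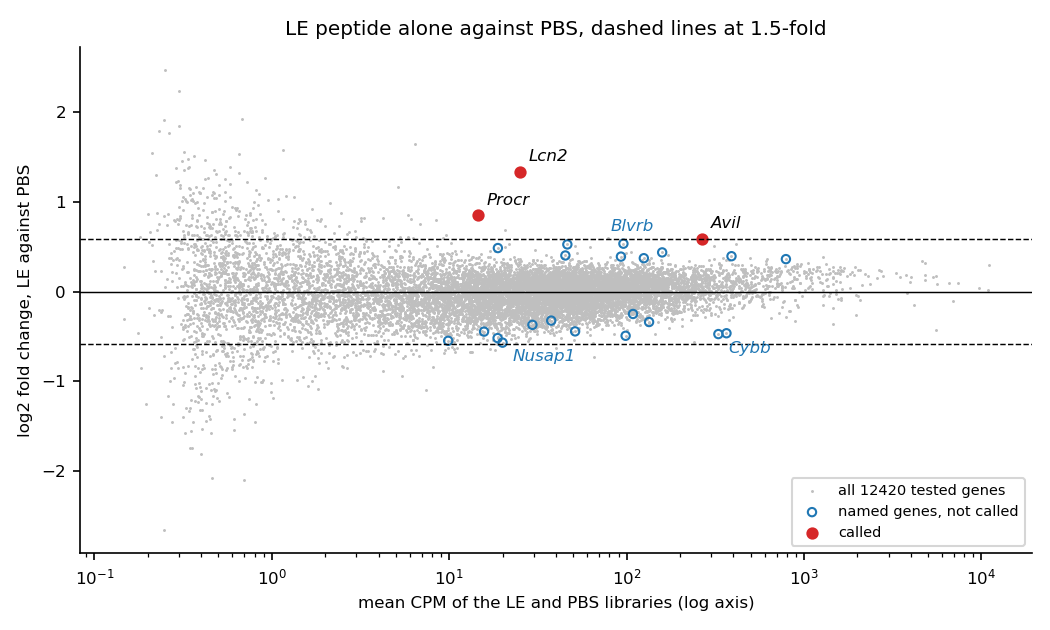
Log2 fold change of LE against PBS (vertical) against the mean CPM of the 6 libraries (horizontal, log axis) for the 12420 tested genes, with the other named genes circled, the 3 called genes in red and dashed lines at 1.5-fold. Lcn2, Procr and Avil are the called points, and the spread of the other genes narrows as their level rises.

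Lcn2 encodes lipocalin 2, a secreted protein that binds bacterial iron carriers and is a classical acute-phase product. It lies on chromosome 2 from 32384633 to 32388252 on the minus strand (GRCm38, ENSMUSG00000026822.14). Its CPM was 13.3, 15.8 and 13.4 in the PBS libraries and 35.2, 33.5 and 39.4 in the LE libraries. The lowest LE library was above the highest PBS library. Lcn2 rose by 1.34 on the log2 scale (SE 0.130, n = 3 per group, adjusted p = 0.000548). In single libraries these levels rest on 294 to 356 reads with PBS and 712 to 812 reads with LE. Lcn2 is also stored in neutrophil granules. The summed CPM of 9 other granule genes was 0.320 to 0.443 with PBS and 0.748 to 0.830 with LE, without overlap but with too few reads for any of them to be tested, and Ltf, the lactoferrin gene, had no reads in any of the 6.

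Procr encodes the endothelial protein C receptor, which promotes the activation of the anticoagulant protein C and is also found on myeloid cells. It lies on chromosome 2 from 155751117 to 155755471 on the plus strand (ENSMUSG00000027611.12). Its CPM was 9.99, 10.7 and 10.3 with PBS and 18.6, 18.5 and 19.1 with LE. The groups did not overlap, and the spread within each was small, with an SD of 0.345 CPM for PBS and 0.315 CPM for LE. Procr rose by 0.85 (SE 0.126, adjusted p = 0.0302).

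Avil encodes advillin, a calcium-regulated actin-binding protein of the gelsolin and villin family. It lies on chromosome 10 from 127000709 to 127020994 on the plus strand (ENSMUSG00000025432.11). Its CPM was 212, 236 and 188 with PBS and 313, 317 and 334 with LE, again without overlap. Avil rose by 0.59 (SE 0.0791, adjusted p = 0.0147), just above the 0.585 that corresponds to 1.5-fold.

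Calls at this size of experiment depended on single libraries. Without replicate 2 of every group, Lcn2 kept its size (1.48) but had an adjusted p of 0.0978, and no gene was called. When 1 LE or PBS library was left out at a time, Lcn2 was called in all 6 fits, Procr in none and Avil in 1, the fit without PBS replicate 2. The adjusted p of Procr then ran from 0.0769 to 0.234, and that of Avil from 0.00637 to 0.156. With an offset that removes a trend on gene length, described further on, Lcn2 was called (1.27), Procr had an adjusted p of 0.0543 and Avil a change of 0.56, below 1.5-fold.

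**Figure D2:**
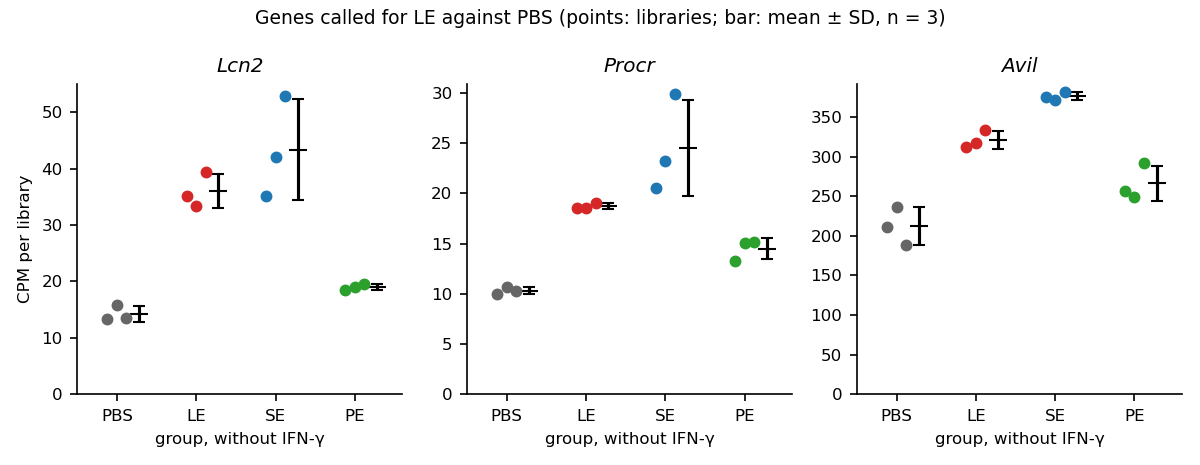
CPM of Lcn2, Procr and Avil in each of the 12 letter-labelled libraries without IFN-γ, by group, with the mean and SD of 3 libraries beside the points. For each of the 3 genes every LE library lies above every PBS library, and the PE libraries lie between the PBS and LE libraries.

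The windows around the RefSeq start sites of the 3 called genes (250 bases before to 50 after the start, GRCm38.p6) are shown because these genes moved in the same direction. They were searched on both strands for 6 motifs: the κB motif (GGGAA and, 3 bases on, CC), the GAS motif TTCNNNGAA of IFN-γ target genes, the AP-1 motif TGANTCA, the antioxidant response element TGACNNNGC, the C/EBP motif TTGCNNAA and the cAMP response element TGACGTCA. Capitals mark matches. The start sites of RefSeq and GENCODE were 513 bases apart for Lcn2 and 100 bases apart for Procr, and coincided for Avil. The windows are, for Lcn2, chr2:32387690-32387989 (minus strand), for Procr, chr2:155750967-155751266 (plus strand), and for Avil, chr10:127000459-127000758 (plus strand).
Lcn2: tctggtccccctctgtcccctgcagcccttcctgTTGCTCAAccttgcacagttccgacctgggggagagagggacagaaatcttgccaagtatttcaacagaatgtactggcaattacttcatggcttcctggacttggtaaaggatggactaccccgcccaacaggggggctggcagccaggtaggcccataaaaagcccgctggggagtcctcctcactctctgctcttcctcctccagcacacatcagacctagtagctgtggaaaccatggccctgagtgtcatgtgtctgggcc
Procr: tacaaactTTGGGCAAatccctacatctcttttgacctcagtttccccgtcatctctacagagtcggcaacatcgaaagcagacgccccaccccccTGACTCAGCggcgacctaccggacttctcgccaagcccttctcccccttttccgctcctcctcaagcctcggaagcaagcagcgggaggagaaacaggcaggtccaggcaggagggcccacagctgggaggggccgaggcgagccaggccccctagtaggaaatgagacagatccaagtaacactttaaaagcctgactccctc
Avil: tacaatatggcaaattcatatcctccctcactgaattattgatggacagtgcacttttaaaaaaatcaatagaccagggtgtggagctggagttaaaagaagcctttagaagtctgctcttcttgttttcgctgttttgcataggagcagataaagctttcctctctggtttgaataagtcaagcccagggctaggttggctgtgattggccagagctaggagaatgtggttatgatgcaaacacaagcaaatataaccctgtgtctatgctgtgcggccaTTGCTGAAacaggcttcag

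Each of the 3 windows held a match to the C/EBP motif, in Lcn2 at position 35 of the window, in Procr at position 9 on the opposite strand and in Avil at position 282. This motif was present in 10.8% of 32851 windows of the same length. The Procr window also held, at position 97, a sequence that matches the AP-1 motif and overlaps a match to the antioxidant response element. Those motifs were present in 7.81% and 12.4% of all windows. No window of the 3 held the letters of the κB, GAS or cAMP motif, which were present in 5.78%, 8.3% and 1.79% of windows. The matches are descriptions of these windows and not evidence of binding.

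The 12 genes with the smallest unadjusted p in each direction, among those with a mean of at least 1 CPM and no overlap between the groups, were named, and on the higher side these include the 3 called genes. Without overlap were 1838 genes (14.8%) on the higher side and 1459 genes (11.7%) on the lower side. On the higher side, the named genes other than the 3 called had adjusted p from 0.0617 to 0.105. Blvrb, which encodes biliverdin reductase B of heme breakdown, had 74.5, 87.7 and 71.8 CPM with PBS and 104, 110 and 127 CPM with LE (log2 change 0.53, SE 0.0896, adjusted p = 0.0617). Slc48a1, which encodes a transporter that moves heme out of the phagosome, had 143, 139 and 121 CPM with PBS and 176, 181 and 192 CPM with LE (0.44, SE 0.0755, adjusted p = 0.0617). Srxn1, which encodes the sulfiredoxin that repairs oxidised peroxiredoxins, had 108, 117 and 100 CPM against 131, 146 and 147 CPM (0.37, SE 0.0668, adjusted p = 0.0727). In these 3 genes the lowest LE library was above the highest PBS library, yet none passed the adjusted threshold in this fit. In the fit of all 24 letter-labelled libraries, with and without IFN-γ, their adjusted p was 0.00175, 0.0239 and 0.00175. There the changes (0.54, 0.45 and 0.38) stayed below 1.5-fold, and Avil had an adjusted p of 0.0667. Which genes pass the adjusted threshold thus depended on the libraries that share the estimate of the spread.

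The other named genes on the higher side were Esd (0.39), an esterase gene, Chpf (0.52), which takes part in chondroitin synthesis, Fkbp11 (0.39) and Ppib (0.36), which encode prolyl isomerases of the endoplasmic reticulum, Fcrl1 (0.40), an Fc receptor-like gene, and Praf2 (0.48), which encodes a small membrane protein of the secretory pathway. Ppib had 686, 733 and 648 CPM with PBS and 893, 840 and 942 CPM with LE. Their adjusted p ran from 0.0617 for Esd to 0.105 for Praf2.

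On the lower side no gene was called. Cybb, which encodes the catalytic subunit of the phagocyte NADPH oxidase, had 425, 348 and 371 CPM with PBS and 282, 279 and 269 CPM with LE. The groups did not overlap, and the log2 change was -0.47 (SE 0.0813, adjusted p = 0.0617). Rasgrp3, which encodes an activator of Ras, had 149, 145 and 153 CPM with PBS and 115, 119 and 122 CPM with LE (-0.34, SE 0.0556, adjusted p = 0.0617). Cd109, which encodes a membrane protein that dampens TGF-β signalling, had 62.4, 55.0 and 59.2 CPM with PBS and 46.2, 44.0 and 40.5 CPM with LE (-0.44, adjusted p = 0.0751). Smad3, which encodes a transcription factor of TGF-β signalling, had 11.6, 11.2 and 12.2 CPM with PBS and 8.06, 9.07 and 6.97 CPM with LE (-0.55, adjusted p = 0.201).

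The remaining named genes on the lower side were Nusap1 (-0.57), a spindle gene, Itga4 (-0.46), an integrin gene, S1pr1 (-0.52), a sphingosine phosphate receptor gene, Stx7 (-0.25), an endosomal fusion gene, Arhgap18 (-0.37), a GTPase regulator gene, Atf7 (-0.32), a transcription factor gene, Lclat1 (-0.45), a lipid acyltransferase gene, and Ccar1 (-0.49), a transcription coactivator gene. Nusap1 had 24.6, 19.7 and 27.2 CPM with PBS and 16.5, 15.6 and 16.4 CPM with LE (adjusted p = 0.135). The other 7 had the same adjusted p, 0.201.

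None of the inflammatory and lupus-related genes that the study follows was called for LE alone. Cxcl10, a chemokine gene that IFN-γ induces, had 0.322, 0.443 and 1.14 CPM with PBS and 0.867, 0.514 and 0.609 CPM with LE (log2 change 0.08, SE 0.461, adjusted p = 0.944). Nos2, the inducible nitric oxide synthase gene, had 7.49, 25.1 and 31.3 CPM with PBS and 16.8, 36.4 and 29.2 CPM with LE (0.36, SE 0.489, adjusted p = 0.727). For both genes the groups overlapped, and the PBS libraries alone spanned more than 3-fold. Tnf, the tumour necrosis factor gene, had 27.4, 41.3 and 39.0 CPM with PBS and 33.1, 46.8 and 44.2 CPM with LE (0.19, adjusted p = 0.64). For Nos2 and Tnf, replicate 1 was the lowest library in each of the groups PBS, LE, SE and PE. At the same replicate number, Tnf was always higher with LE than with PBS, and Nos2 was higher in replicates 1 and 2 but not 3. The test did not use replicate numbers.

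Irf4, a transcription factor gene of plasma cells and alternatively activated macrophages, had 8.90, 6.02 and 8.40 CPM with PBS and 4.38, 5.98 and 6.97 CPM with LE (-0.45, SE 0.25, adjusted p = 0.378). Ccl5, the chemokine gene also known as RANTES, had 1.21, 1.59 and 1.64 CPM with PBS and 1.86, 2.62 and 2.99 CPM with LE (0.73, SE 0.298, adjusted p = 0.274). The Ccl5 groups did not overlap, but each library held few reads of it. Il1b, the interleukin 1β gene, was too low to be tested, with 2, 4 and 1 reads in the PBS libraries and 12, 2 and 4 reads in the LE libraries. Of the 22 genes of the study's lupus list for LE with IFN-γ, which its authors drew from libraries of this series, 0 were called here, 2 were higher and 0 lower at an unadjusted p under 0.05, and the median log2 change was 0.10 against -0.01 over all tested genes.

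Gene lists are described by counts and medians, read against the 8.37% of all genes higher and 7.36% lower at an unadjusted p under 0.05 and a median log2 change of -0.01. Unless a called gene is named, 0 members of a list were called. The iron handling, acute-phase, coagulation and gelsolin and villin lists hold Lcn2, Procr or Avil and were chosen with earlier results of these data known. Nothing is read from the called member of these lists or from its place in their counts. Where a list is given under another setting, the shares of all genes higher and lower were 6.72% and 5.27% with the length offset, 6.24% and 4.46% without PBS replicate 1, and 3.52% and 3.34% without LE replicate 3. Of 20 targets of NRF2, the transcription factor of the oxidative stress response, 13 were higher and 0 lower, and 19 had a fitted change above 0 (median 0.24). Gclm, which encodes the modifier subunit of glutathione synthesis, had 47.2, 44.0 and 34.9 CPM with PBS and 57.2, 60.3 and 62.6 CPM with LE (0.50, adjusted p = 0.201). G6pdx, which encodes the first enzyme of the pentose phosphate pathway, had 341, 347 and 308 CPM with PBS and 418, 417 and 441 CPM with LE (0.35, adjusted p = 0.201). Hmox1, which encodes heme oxygenase 1, had 366, 459 and 464 CPM with PBS and 474, 601 and 600 CPM with LE (0.37, adjusted p = 0.225). Gclc, the partner of Gclm in glutathione synthesis, stood at -0.01. Nqo1, a widely used NRF2 target, was below 1 CPM in all 6 libraries. The most abundant target was Sqstm1, which encodes the autophagy receptor p62, with 2262, 2603 and 2611 CPM with PBS and 2868, 2929 and 3049 CPM with LE (0.23, adjusted p = 0.218). With the length offset the list's median was 0.20 with 11 higher, and without LE replicate 3 it was 0.21 with 10 higher. Gclm, Hmox1 and Nqo1 were chosen after their values were seen.

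Of 15 tested iron handling genes, Lcn2 was called, 5 were higher and 1 lower at an unadjusted p under 0.05, and the median was 0.14. The ferritin genes Fth1 and Ftl1, which encode the subunits of the iron store, stood at 0.29 (adjusted p = 0.232) and 0.31 (adjusted p = 0.215). Fth1 had 9503, 10287 and 9734 CPM with PBS and 11528, 11779 and 13136 CPM with LE, without overlap. Slc11a1, which encodes the phagosomal metal transporter NRAMP1, had 155, 142 and 122 CPM with PBS and 174, 169 and 182 CPM with LE (0.31, adjusted p = 0.21). Ncoa4, which encodes the receptor that delivers ferritin to the lysosome, had 49.6, 38.8 and 41.1 CPM with PBS and 31.9, 34.6 and 30.7 CPM with LE (-0.43, adjusted p = 0.225). Ftl1 was chosen after its values were seen. Without LE replicate 3 the list's median was 0.08.

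No member of the inflammatory lists was called. Of 24 tested targets of Toll-like receptors and NF-κB, 8 were higher and 0 lower at an unadjusted p under 0.05 (median 0.18). Ccl4, a chemokine gene, had 45.7, 54.4 and 53.8 CPM with PBS and 63.8, 75.7 and 78.9 CPM with LE (0.49, adjusted p = 0.201). Its neighbour Ccl3 had 233, 283 and 291 CPM with PBS and 317, 354 and 376 CPM with LE (0.36, adjusted p = 0.218). Neither pair of groups overlapped. Nfkbiz, which encodes a nuclear regulator of NF-κB, stood at -0.39 (adjusted p = 0.412), and Tnfaip2, the most abundant target, at 0.06 (adjusted p = 0.64). Without PBS replicate 1 the list's median was 0.07 with 4 higher, without LE replicate 3 it was 0.12 with 3 higher, and with the length offset it was 0.13 with 5 higher. Of 17 tested IFN-γ targets, 4 were higher and 0 lower (median 0.08), among them Psmb8, an immunoproteasome gene (0.32, adjusted p = 0.218), and Cd74, the MHC class II invariant chain gene (0.39, adjusted p = 0.225). The guanylate-binding protein gene Gbp7 stood at -0.78 (adjusted p = 0.326), at a level near 1 CPM. Without LE replicate 3 the count was 2. Of 23 type I interferon targets, 2 were higher and 0 lower (median 0.05, and -0.01 without PBS replicate 1). Bst2, which encodes the antiviral protein tetherin, had 143, 150 and 147 CPM with PBS and 201, 182 and 207 CPM with LE (0.41, adjusted p = 0.201). Irf7, which encodes the transcription factor that amplifies the type I interferon response, had 69.5, 80.0 and 92.3 CPM with PBS and 95.2, 97.8 and 104 CPM with LE (0.29, adjusted p = 0.241). The groups of both genes did not overlap, while Mx2, an antiviral GTPase gene, stood at -0.37 (adjusted p = 0.429) with overlapping groups.

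Of 11 tested acute-phase and antimicrobial genes, Lcn2 was the 1 called and the 1 higher at an unadjusted p under 0.05, and 1 was lower. Cd14, the lipopolysaccharide co-receptor gene, stood at 0.17 (adjusted p = 0.376), and Il1rn, which encodes the interleukin 1 receptor antagonist, at -0.24 (adjusted p = 0.225). C3, the complement gene, stood at -0.20 (adjusted p = 0.427). Of 11 coagulation genes, Procr was called and Plaur, the urokinase receptor gene, was the other 1 of 2 higher (0.31, adjusted p = 0.317). F3, the tissue factor gene, stood at -0.27 (adjusted p = 0.827) and Gas6, which encodes a ligand for clearance receptors of dying cells, at 0.21 (adjusted p = 0.421). Of 13 genes of the gelsolin and villin family and of actin bundling, Avil was called, 3 were higher and 1 lower. Without PBS replicate 1, and likewise without LE replicate 3, 1 was higher. Capg, which encodes the macrophage capping protein, had 1640, 1894 and 1834 CPM with PBS and 1929, 2030 and 2198 CPM with LE (0.19, adjusted p = 0.285), and Pls3, a plastin gene, stood at -0.22 (adjusted p = 0.304).

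All 32 tested mitosis genes had a fitted change below 0, 18 of them at an unadjusted p under 0.05 (median -0.30). Cenpf, a kinetochore gene, had 23.4, 23.5 and 31.9 CPM with PBS and 20.7, 16.6 and 17.7 CPM with LE (-0.53, adjusted p = 0.201). Prc1, which bundles the microtubules of the dividing cell, had 34.1, 37.4 and 46.7 CPM with PBS and 29.7, 31.2 and 28.7 CPM with LE (-0.41, adjusted p = 0.201). Mki67, which encodes the proliferation marker Ki-67, had 218, 198 and 230 CPM with PBS and 178, 189 and 190 CPM with LE (-0.23, adjusted p = 0.266). The 3 genes were lower in every LE library than in any PBS library. The median of the mitosis list stayed between -0.32 and -0.27 without PBS replicate 1, without LE replicate 3 and with the length offset. Of 32 DNA replication genes, 2 were higher and 0 lower, with a median of 0.12, and the 2 were Ccne1, the cyclin E1 gene (0.27, adjusted p = 0.302), and Rfc2, a clamp loader gene (0.30, adjusted p = 0.317). Without PBS replicate 1, 13 of the 32 were higher, 31 had a fitted change above 0 and the median was 0.28. Without LE replicate 3, 0 were higher. Mcm2, which encodes a subunit of the replicative helicase, stood at -0.01. In RNA from whole cultures, fewer dividing cells and less of these transcripts per cell cannot be told apart.

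All 36 cytosolic ribosome genes had a fitted change above 0, 33 at an unadjusted p under 0.05, with changes from 0.05 to 0.29 and a median of 0.23. The whole interval was within 1.5-fold for each of the 36. Rps14 had 768, 893 and 817 CPM with PBS and 987, 944 and 1102 CPM with LE (0.28, adjusted p = 0.211). Rpl4, the most abundant of them, had 3077, 3444 and 3333 CPM with PBS and 3538, 3671 and 3865 CPM with LE (0.16, adjusted p = 0.325). Of 41 nuclear genes of the respiratory chain, 21 were higher and 0 lower (median 0.18), and their intervals were also all within 1.5-fold. Uqcrq, a complex III gene, had 249, 293 and 257 CPM with PBS and 321, 316 and 351 CPM with LE (0.30, adjusted p = 0.209). These are short genes, with median exon lengths of 1782 and 1908 bases against 4192 over all tested genes with a length. With the length offset their medians were 0.13 and 0.09, and the counts higher at an unadjusted p under 0.05 were 16 and 6. Without PBS replicate 1 the counts were 16 and 17, and without LE replicate 3 they were 10 and 8.

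Of the 13 respiratory chain genes encoded in the mitochondrion, 6 had no reads in any of the 6 libraries and 7 were tested. The cytochrome oxidase gene mt-Co1 had 7427, 5502 and 5987 CPM with PBS and 5010, 4826 and 4372 CPM with LE (-0.42, adjusted p = 0.218), and 4 of the 7 were lower at an unadjusted p under 0.05. The other 3 were mt-Nd1 (-0.26), mt-Nd2 (-0.32) and mt-Nd5 (-0.36), which encode subunits of complex I, while the complex I gene mt-Nd4 stood at 0.02. PBS replicate 1 had the highest mt-Co1, mt-Nd1, mt-Nd2 and mt-Nd5 of the 6 libraries. Without it, 1 of the 7 was lower and the median was -0.06 in place of -0.26. With the length offset, 5 were lower and the median was -0.41.

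Of 21 tested targets of ATF4 and CHOP, the transcription factors of the integrated stress response, 0 were higher or lower at an unadjusted p under 0.05, the median was 0.01, and the interval was within 1.5-fold for 20. The median was -0.09 without PBS replicate 1, with 16 of the 21 below 0, and -0.06 with the length offset. Atf4 itself had 712, 858 and 951 CPM with PBS and 856, 868 and 892 CPM with LE (0.04, adjusted p = 0.826). Of 23 cholesterol synthesis genes, 1 was higher and 3 lower (median 0.01), with all 23 within 1.5-fold, and 1 was lower without PBS replicate 1. Hmgcs1, which encodes an early enzyme of the pathway, stood at -0.24 (adjusted p = 0.227), Ebp, a later enzyme gene, at 0.22 (adjusted p = 0.231), and the regulator gene Srebf2 at 0.03 (adjusted p = 0.881). Of 23 genes of endoplasmic reticulum chaperones and the unfolded protein response, 3 were higher and 1 lower (median -0.05), with 21 within 1.5-fold. The counts were 2 and 3 without PBS replicate 1, 1 and 0 without LE replicate 3, and 1 and 1 with the length offset. Hspa5, the chaperone gene also called BiP, had 5980, 7076 and 8271 CPM with PBS and 6850, 6555 and 6610 CPM with LE (-0.10, adjusted p = 0.659). Calr, the calreticulin gene, had 4299, 4727 and 4436 CPM with PBS and 5135, 4852 and 5377 CPM with LE (0.18, adjusted p = 0.266). Of 15 necroptosis and death receptor genes, 3 were higher and 1 lower (median 0.01). Without PBS replicate 1, 1 was higher, and 0 were without LE replicate 3 or with the length offset. The TNF receptor gene Tnfrsf1a stood at 0.21 and its adaptor gene Tradd also at 0.21, and Cyld, a deubiquitinase gene, at -0.28. Of 14 genes of LXR and cholesterol efflux, 0 were higher and 2 lower (median -0.09). With the length offset 1 was lower, and without LE replicate 3 the count lower was 0. Abca1, the cholesterol exporter gene, had 17.7, 16.6 and 15.3 CPM with PBS and 10.1, 13.6 and 7.47 CPM with LE (-0.67, adjusted p = 0.262). Lpl, the lipoprotein lipase gene, had 236, 255 and 292 CPM with PBS and 207, 241 and 226 CPM with LE (-0.23, adjusted p = 0.29).

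Of 19 tested osteoclast genes, 6 were higher and 1 lower (median 0.12). Mmp9, the gelatinase gene, had 10.5, 16.9 and 12.8 CPM with PBS and 20.9, 31.4 and 29.8 CPM with LE (1.02, SE 0.243, adjusted p = 0.201). The groups did not overlap, but the spread within each was wide. Ctsk, the bone matrix protease gene cathepsin K, had 95.3, 92.0 and 87.9 CPM with PBS and 117, 108 and 111 CPM with LE (0.28, adjusted p = 0.201). Traf6, which encodes an adaptor of RANK signalling, stood at -0.30 (adjusted p = 0.246). Of 25 long genes of adhesion, matrix sensing and endocytosis, 1 was higher and 3 lower (median -0.15, median exon length 9801 bases), with Iqgap1, a scaffold gene, at -0.22 (adjusted p = 0.259) and the talin gene Tln1 at -0.02 (adjusted p = 0.919). With the length offset 13 of the 25 had a fitted change above 0 and 12 below, in place of 5 and 20, and the median turned to 0.03. Without LE replicate 3, 1 was lower. Of 16 macrophage identity genes, 2 were higher and 3 lower (median 0.06, 0.01 with the length offset, and 1 lower without PBS replicate 1 or LE replicate 3), among them Adgre1, the F4/80 gene (-0.25, adjusted p = 0.24), and Tyrobp, which encodes a signalling adaptor of myeloid receptors (0.22, adjusted p = 0.231). Of 7 replication-dependent histone genes tested, 1 was higher, Hist1h4i (0.67, adjusted p = 0.218), and 1 lower, Hist2h2be (-0.40, adjusted p = 0.223), with a median of -0.11, which was -0.23 with the length offset and -0.03 without PBS replicate 1.

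**Figure D3:**
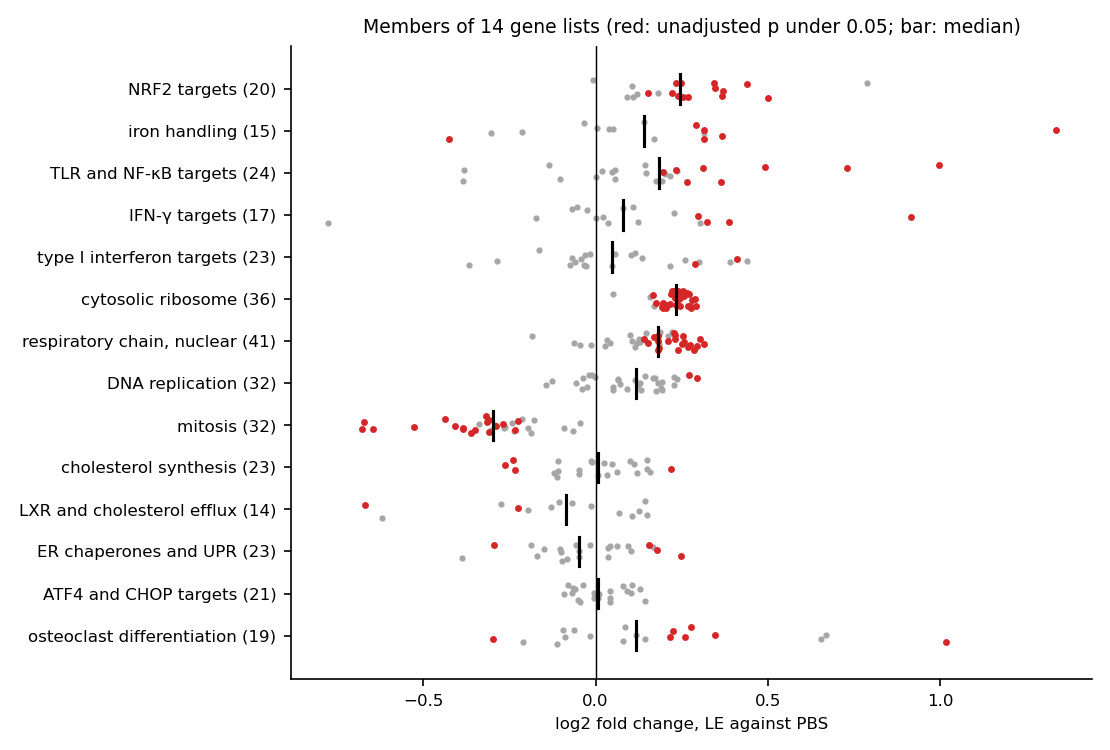
Log2 fold change of LE against PBS (horizontal) for the tested members of 14 gene lists, with the number tested beside each name, red points for an unadjusted p under 0.05 and a bar at the median. NRF2 targets (median 0.24) and ribosome genes (0.23) sit to the right of 0, mitosis genes (-0.30) to the left, and ATF4 and CHOP targets cluster at 0.

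A trend on gene length ran through the comparison. Over 12064 genes with a length, the log2 change of LE against PBS fell with exon length (Spearman's correlation -0.372 across genes, which are not independent). The median change was 0.12 in the quintile of shortest genes, with a median length of 1392 bases, and -0.12 in the quintile of longest genes, with a median length of 9554 bases. In the first of these, 17.5% of genes were higher and 1.49% lower at an unadjusted p under 0.05, and in the last 1.91% were higher and 18.0% lower. The trend was not carried evenly by the libraries. Against the mean of the 6, this correlation was 0.347, 0.103 and 0.159 in the PBS libraries and -0.165, -0.146 and -0.397 in the LE libraries, so PBS replicate 1 and LE replicate 3 stood farthest out. Length and treatment moved together in all 6 libraries, and the part of the trend in the lists above was not tested beyond the offset values given. The 12 named genes on the higher side had a median exon length of 2801 bases and the 12 on the lower side 5824 bases. LE against SE and LE against PE had trends of the opposite sign (correlations of 0.314 and 0.328), so longer genes stood relatively higher with LE than with SE or PE. LE with IFN-γ against IFN-γ alone also had a trend of the opposite sign (0.228).

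**Figure D4:**
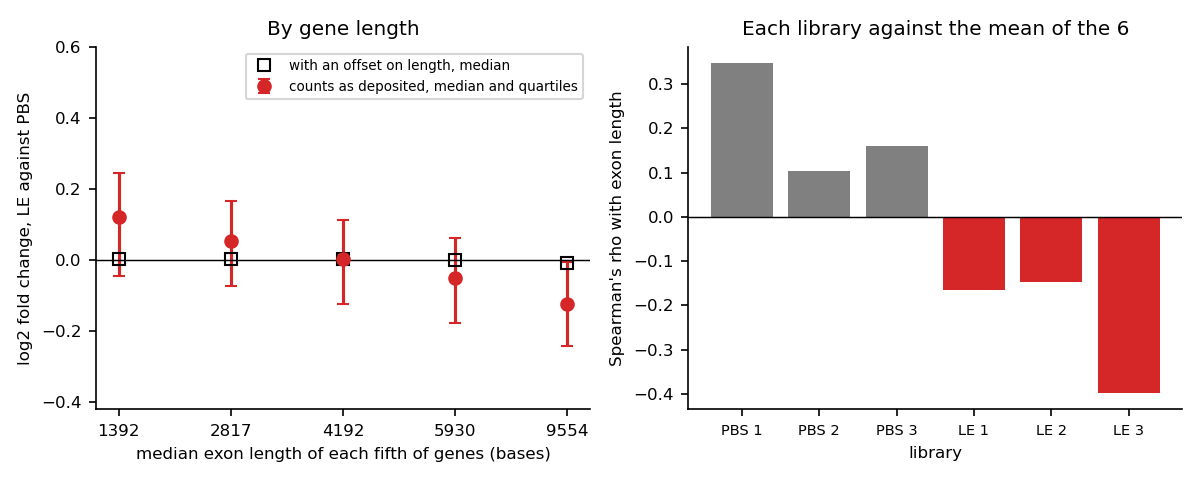
Left, median and quartiles of the log2 change of LE against PBS in quintiles of exon length (bases), with the medians after a length offset as squares. Right, Spearman's correlation with length for each library against the mean of the 6: the PBS bars are above 0 (0.103 to 0.347) and the LE bars below (-0.397 to -0.146).

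LE was next set against the other peptides alone, at the same concentration and time, in 2 pairs. LE against SE gave 0 called genes (percent called 0), 1 gene at an adjusted p under 0.05 whatever its fold, and 687 genes at an unadjusted p under 0.05. That gene was Itgb7, an integrin gene, with 160, 179 and 165 CPM with PBS, 200, 206 and 211 CPM with LE and 292, 274 and 310 CPM with SE (LE against SE -0.51, SE 0.0679, adjusted p = 0.0291). LE and SE libraries did not overlap for it, at a difference just below 1.5-fold. DESeq2 also called 0 genes for LE against SE.

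For the 3 genes called against PBS, the LE level was below the SE level in the fit without a called difference. Lcn2 had 35.1, 42.1 and 52.9 CPM with SE, a difference of -0.27 (95% interval -0.53 to -0.0016, adjusted p = 0.86). Procr had 20.5, 23.2 and 29.9 CPM with SE (-0.39, interval -0.65 to -0.13). Avil had 376, 372 and 382 CPM with SE (-0.23, interval -0.40 to -0.06). Thus the intervals left room for a Procr level with SE that is higher by more than 1.5-fold, and held Lcn2 and Avil within it.

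LE against PE gave 3 called genes (0.0242%), and 2 when p-values were adjusted over both pairs together. Lcn2 had 18.4, 18.9 and 19.6 CPM with PE, and LE was higher by 0.92 (SE 0.129, adjusted p = 0.02). Rgs2, which encodes an inhibitor of G protein signalling, had 37.8, 42.6 and 44.8 CPM with LE, 62.7, 65.6 and 63.5 CPM with PE and 40.9, 47.2 and 50.0 CPM with PBS (LE against PE -0.61, SE 0.0877, adjusted p = 0.02). Igf2bp3, which encodes an RNA-binding protein, had 5.20, 5.14 and 4.37 CPM with LE, 2.13, 2.35 and 2.21 CPM with PE and 4.99, 4.07 and 3.38 CPM with PBS (1.14, SE 0.184, adjusted p = 0.0468). For Rgs2 and Igf2bp3 the LE and PBS libraries overlapped, while for Lcn2 the PE and PBS libraries were both below all LE libraries.

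Below 1.5-fold, Pmp22 (-0.32) and Rasgrp3 (-0.39) also had an adjusted p under 0.05 for LE against PE. Rasgrp3, lower with LE than with PBS above, had 155, 161 and 150 CPM with PE. Procr and Avil were higher with LE than with PE by 0.37 (interval 0.11 to 0.64) and 0.27 (interval 0.10 to 0.44), neither called. No gene was called for LE against PE when replicate 1, 2 or 3 of every group was left out.

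Against the same PBS libraries, SE gave 239 called genes (1.92%) and PE 389 (3.13%), where LE gave 3. The 3 comparisons share their controls, so their values are given side by side. Lcn2 had a log2 change of 1.34 with LE, 1.60 with SE and 0.41 with PE. Procr had 0.85, 1.24 and 0.48, and Avil 0.59, 0.82 and 0.31. Blvrb had 0.53, 0.61 and 0.41, and Cybb -0.47, -0.63 and -0.45. Ccl5 had 0.73, 1.30 and 0.78. Whether the counts of called genes differ between peptides was tested only gene by gene, as above. LE differed from SE and PE along gene length (correlations of 0.314 and 0.328), and the part of length in these counts was not tested.

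With IFN-γ present, the genes called for LE alone behaved differently. Lcn2 had 94.3, 117 and 102 CPM with IFN-γ and 95.2, 97.6 and 78.9 CPM with LE and IFN-γ, so the levels were above those without IFN-γ and the groups overlapped. The LE effect there was -0.21 (SE 0.112), and the difference between the effects with and without IFN-γ was -1.55 (SE 0.171, adjusted p = 3.56e-07). Avil had 259, 400 and 229 CPM with IFN-γ and 95.9, 102 and 66.0 CPM with LE and IFN-γ, without overlap. Its LE effect turned from 0.60 to -1.75, an interaction of -2.35 (SE 0.224, adjusted p = 5.35e-08). Procr had 57.8, 65.6 and 63.1 CPM with IFN-γ and 75.2, 78.8 and 67.9 CPM with both, an effect of 0.25 and an interaction of -0.61 (SE 0.142, adjusted p = 0.00158). In the fit of 24 libraries, 2471 of 13096 genes (18.9%) were called for this interaction.

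Among the 24 genes named for the smallest p on either side, 13 were called for the interaction. They were chosen on the LE effect alone, which is part of the interaction, so nothing is read from that share. Of the 12 on the higher side, 4 also had an LE effect above 0 with IFN-γ, and of the 12 on the lower side, 4 had one below 0. Fkbp11 went from 0.40 to -1.37 (interaction adjusted p = 8.25e-09) and Ppib from 0.37 to -0.71 (9.22e-08). Cybb went from -0.46 to 0.62 (6.78e-06) and Smad3 from -0.54 to 0.91 (1.27e-07). S1pr1 was lower in both settings, at -0.51 and -0.68. Across 12420 genes, the LE effects without and with IFN-γ, which share no library, had a Pearson correlation of -0.144, a description over genes that are not independent. These effects had opposite trends on exon length (Spearman's correlations of -0.372 without and 0.228 with IFN-γ). The part of length in this correlation, in the turned signs and in the interaction calls was not tested.

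**Figure D5:**
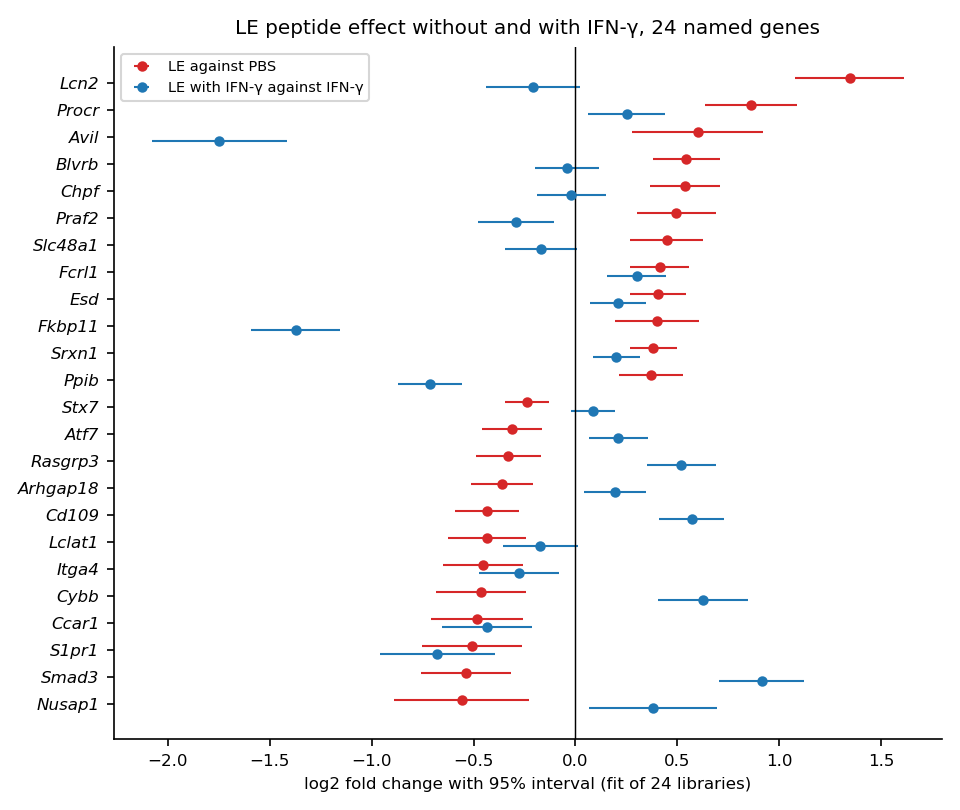
Log2 effect of LE with its 95% interval (horizontal) for the 24 named genes, against PBS without IFN-γ (red) and against IFN-γ alone with IFN-γ (blue), from 1 fit of 24 libraries. Avil moves from 0.60 to -1.75 and Fkbp11 from 0.40 to -1.37, while S1pr1 and Ccar1 lie below 0 in both.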

How the data were processed

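Polyadenylated RNA of RAW264.7 cells was made into stranded libraries by the authors and read single-ended. The authors deposited 1 table of raw read counts for 49568 genes and 48 libraries, made with featureCounts on GENCODE M12 gene models from uniquely aligned reads (build GRCm38.p5 in the submitters' processing notes). The aligner is not given in the sources used here. Reads of near-identical genes are lost in such counts. The 26 gene names that look like dates and the 2 names on more than 1 line stayed in the totals and fits and are not named.

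Counts were tested as deposited with edgeR 4.0.16 in R 4.3.3 (quasi-likelihood F test, TMM scaling, filterByExpr). LE was compared with PBS, SE and PE in a fit of the 12 letter-labelled libraries without IFN-γ, and the interaction with IFN-γ in a fit of 24. A gene was called at a Benjamini-Hochberg adjusted p under 0.05 and a fold change over 1.5. CPM values shown are TMM-scaled over the 24 letter-labelled libraries. Intervals are 95% intervals of the fit and are not adjusted. Exon lengths came from GENCODE M21 on GRCm38, for 12064 of 12420 tested genes, and start windows from RefSeq. The length offset was a lowess curve (span 0.3) of each library's log2 deviation on length. Alternatives included RLE scaling, no filter, DESeq2 1.42.0, a replicate block, left-out libraries and protein-coding genes alone, the last as in the study's methods. The fitting code was checked on simulated counts.

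The comparison and the 29 gene lists were chosen with earlier results of these data known. Named were every called gene, up to 12 genes per direction with the smallest unadjusted p among those without overlap and with at least 1 CPM, up to 2 members per direction and the most abundant member of each list (not all printed), and the genes Cxcl10, Nos2, Tnf, Il1b, Irf4 and Ccl5. Markers of other cell types are given as levels, and the macrophage identity genes also as a list with changes. Replicate numbers paired the libraries only in part. Deviations of LE and PBS libraries with the same number correlated at 0.305, 0.0572 and 0.131. LE replicate 1 correlated at -0.194 and -0.208 with PBS replicates 2 and 3, so replicate 1 shared a deviation across both groups. LE replicates 2 and 3 correlated best with PBS replicates 3 and 2 (0.102 and 0.156), by small margins over their own numbers. Deviations from a group mean sum to 0, so these values cannot decide whether replicates 2 and 3 are paired. The main fit used no replicate block. Replicate libraries differed by at least 5.89 times sampling noise (chi-square per degree of freedom), so none was counted as a duplicate. The labels do not say that replicates came from separate cultures, so p-values measure the spread between these libraries.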

Additional observations from a re-analysis of the deposited data

Results flagged for a closer look

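The effect of LE differed between cells without and with IFN-γ, by the interaction term of the 24-library edgeR fit (adjusted p under 0.05 and over 1.5-fold), for the following named genes. The interaction on the log2 scale was -1.55 for Lcn2, -0.61 for Procr and -2.35 for Avil. Among the other genes named on the higher side it was -0.59 for Blvrb, -0.62 for Slc48a1, -1.77 for Fkbp11, -1.09 for Ppib and -0.79 for Praf2. Among those on the lower side it was 0.85 for Rasgrp3, 1.09 for Cybb, 1.00 for Cd109, 0.94 for Nusap1 and 1.45 for Smad3. Among the inflammatory genes it was 1.66 for Cxcl10, 0.90 for Tnf, 2.72 for Irf4 and 1.23 for Ccl5. Most of these were named for a small p in cells without IFN-γ, which is part of the interaction. Cxcl10, Tnf, Irf4 and Ccl5 belong to the study's lupus list for LE with IFN-γ, drawn from libraries of this series. The LE effect with IFN-γ is the other part of the interaction. Nothing is therefore read from the number or direction of these interactions, and the part of gene length in them was not tested.

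The 3 HLA-labelled libraries of LE without IFN-γ, which the comparison did not use, had a mean log2(CPM + 1) of 7.08 over 24 IFN-γ targets (SD 0.0304). The HLA-labelled PBS libraries had 2.54 (SD 0.0493). The level in these LE libraries goes against their label, and this was not particular to LE. The HLA-labelled PE libraries without IFN-γ were also high (7.04, 7.02 and 6.88), and the HLA-labelled libraries of IFN-γ alone were low (2.52, 2.43 and 2.41). Those labelled SE with IFN-γ were low too (2.39, 2.48 and 2.39). In the deposited table the HLA-labelled columns stand in an order other than their label numbers. The columns placed after letter-labelled groups without IFN-γ were low, and those placed after groups with IFN-γ were high. That order was not used here. The cause was not tested.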

How the results depend on the processing

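The count of 3 genes called for LE against PBS was 2 to 4 under RLE scaling, DESeq2, protein-coding genes alone, the adjusted p alone, the fit of LE and PBS libraries alone, and the length offset with the replicate block. DESeq2 called Avil and Chchd10 and gave Lcn2 and Procr no adjusted p. The count was 57 (35 lower) with no filter on low counts, 9 with DESeq2 without independent filtering (chosen after seeing the data), 1 with the length offset, 0 with both label series and 1123 with both and a series block, where the HLA-labelled LE libraries enter against their label. Leaving out replicates gave 0 to 3 calls. The replicate block gave 7 calls (1 lower), and 77 (52 lower) in the fit of LE and PBS libraries alone. LE replicate 1 correlated best with PBS replicate 1 (0.305). LE replicates 2 and 3 correlated at 0.102 and 0.156 with PBS replicates 3 and 2, and at 0.0572 and 0.131 with their own numbers. Margins this small cannot decide whether those replicates are paired.

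LE against SE had 10 calls with no filter and 1 with the replicate block, and 0 otherwise. LE against PE had 55 with no filter, 19 with DESeq2, 17 without its independent filtering, 18 with the replicate block, and 0 in each fit without a replicate. The interaction count and the count of genes bounded within 1.5-fold stayed within 1.5 times.

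The fits of both label series include HLA-labelled LE libraries that went against their label. Their IFN-γ target level was 7.05 to 7.11, against 2.49 to 2.59 in the HLA-labelled PBS libraries. With both label series, values turned sign, without and with the series block, for Avil (-0.79 and -1.98), Fkbp11 (-0.41 and -1.33), Ppib (-0.21 and -0.36), Cybb (1.75 and 1.01), Nusap1 (0.59 and 0.25), Stx7 (0.0722 and 0.0520), Smad3 (0.58 and 0.38), Irf4 (1.05 and 0.65) and, without the block, Cd109 (0.0254). Leaving out libraries gave -0.50 to 0.84 for Cxcl10, below 0 without replicate 1, without PBS replicate 1 (-0.25) or 2 (-0.12) or without LE replicate 1 (-0.18), and -0.0482 (without PBS replicate 1) to 0.75 for Nos2. The cause was not tested. Of 69 list medians recomputed without PBS replicate 1, without LE replicate 3 or with the length offset (23 lists), 13 in 9 lists moved by more than 1 SD between LE libraries, among them DNA replication (0.28 without PBS replicate 1), iron handling (0.08 without LE replicate 3) and, with the offset, the nuclear respiratory chain (0.09) and the long adhesion genes (0.03).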
